A study of Gallus gallus with 5 samples.

Results

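Cytosolic ribosomal proteins, the proteins that with ribosomal RNA build the ribosome of the cytoplasm, were followed in chicken DT40 cells lacking a linker histone. Members were the probe sets with 1 gene symbol in the probe table that reads RPL or RPS with a number, or names a stalk protein of the P group, and the S6 kinase genes (RPS6K) were left out. This gave 139 of 38439 probe sets and 66 of 13009 named genes, of which 43 code for proteins of the large subunit (92 probe sets) and 23 for proteins of the small subunit (47 probe sets). The rule itself uses no measured value, though it was written with earlier results of these data known.

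DT40 is a B cell line from a chicken bursal lymphoma. The array labelled H1L comes from cells with a homozygous deletion, by its label, of H1L, a variant of linker histone, and the 2 arrays labelled H1R come from cells with a homozygous deletion, by their labels, of the variant H1R. The 2 WT arrays come from wild-type DT40 cells. All cells grew exponentially in one culture medium, RPMI with fetal calf serum, chicken serum and 2-mercaptoethanol. The labels give neither the number of clones behind a deletion nor whether the replicates were separate cultures, so the p-values below measure only the spread between arrays, which may be technical. The date codes in the labels place H1R 1 and WT 1 on a first day and H1L 1, H1R 2 and WT 2 on a second day. The study asked which genes respond to the loss of a single H1 variant.

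Linker histones bind DNA where it enters and leaves the nucleosome and help to compact chromatin. Ribosomal protein genes are among the most strongly transcribed genes of a dividing cell, and their messages are known to be made in closely matched amounts. Most of the proteins join the ribosome in equal numbers, and free copies are degraded. In vertebrates most of these messages begin with a pyrimidine-rich stretch that lets growth signals through mTOR set their translation together. A few members have paralogues that can take their place in the ribosome, among them RPL22 and RPL22L1, and RPL22 protein is known in mouse to hold down the expression of its paralogue.

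The member probe sets were bright. A probe set here is a group of oligonucleotides on an Affymetrix Chicken Genome array, and its signal is a brightness in arbitrary units. The brightest probe set of a gene had a mean signal over the 5 arrays between 39.8 and 14688, with a median of 10754 over the 66 genes, while the median signal of an array over all probe sets lay between 19.3 and 22.4. In all, 80 member probe sets of 63 genes had a mean signal over 1000 and are called bright below, and 59 were dimmer. The dimmest of the bright ones averaged 1177 and the brightest of the others 751.5. The genes with no bright probe set were RPL31, RPL3L and RPS13. A probe set's signal depends on its own oligonucleotides, so these values do not rank the genes.

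The members took 9.5% of the summed signal in H1L 1, 9.21% and 8.88% in H1R 1 and H1R 2, and 10.4% and 8.98% in WT 1 and WT 2. H1L 1 and H1R 1 lay between the WT arrays, and H1R 2 just below them. The highest signal on an array lay between 14694 and 16687, close above the brightest members, and whether the scale flattens there was not tested. The ratio of actin signals from the 3′ and 5′ ends of the message, a sign of RNA quality, was 2.01 in H1L 1, 3.87 and 2.25 in H1R 1 and H1R 2, and 2.81 and 2.02 in WT 1 and WT 2. A background limit, the highest signal among 23 control probe sets with no chicken target, lay between 18 and 33.6. Of the 139 member probe sets, 118 exceeded it on all 5 arrays, 16 on some and 5 on none. Fewer cells of a type and less RNA per cell cannot be told apart in such bulk RNA.

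The B cell identity of the line was visible on every array, where 14 of 15 measured B cell marker genes exceeded the background limit. Summed B cell marker signal was 15940 in H1L 1, 13326 and 13669 in the H1R arrays and 15781 and 23574 in the WT arrays. Of these markers CXCR4 rose and IRF4 and CD79B fell in H1R against WT. In the same comparison the fibroblast markers MMP2 and COL1A2, the myeloid marker MMP9 and the T cell marker CD5 rose. MMP9 also rose in H1L against WT. Of all tested probe sets 1.17% were called in H1R against WT and 0.2% in H1L against WT. On both WT arrays MMP2 (9.1 and 3.1) and COL1A2 (16.8 and 10.2) lay below the background limit. Median log2 fold changes in H1R were -0.16 for B cell, 0.55 for fibroblast, 0.26 for myeloid, -0.375 for T cell and -0.10 for erythroid markers, beside 0.09 for all. Of 12 fibroblast markers 3 exceeded the limit in H1L 1, 5 and 4 in H1R, and 2 and 5 in WT, with summed signals of 284.3 in H1L 1, 582.5 and 734.3 in H1R and 200.6 and 221.1 in WT. Between 3 and 5 of 11 T cell markers, 3 and 6 of 10 myeloid markers and none to 3 of 6 erythroid markers exceeded the limit. The summed signals of T cell markers were 2275 in H1L 1, 1597 and 1027 in H1R and 2583 and 4390 in WT, those of myeloid markers 2319 in H1L 1, 1997 and 2278 in H1R and 1204 and 1799 in WT, and those of erythroid markers 113.9 in H1L 1, 80.4 and 158.8 in H1R and 79.9 and 121.5 in WT. The part of these markers in the values below was not tested. The probe set named for the H1L gene (HIST1H111L) read 2295 in H1L 1, 981.8 and 2372 in H1R and 1320 and 2035 in WT, and the one named for H1R (HIST1H111R) read 42.2 in H1L 1, 28.9 and 7.0 in H1R and 36.1 and 39.4 in WT. Both belong to one cluster of transcripts in the array design, and where they lie relative to the deleted parts is not known here, so they check no label.

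RPL22L1 stood apart from the other members. It codes for the paralogue of RPL22, a protein of the large subunit that binds RNA outside the catalytic core. Its brightest probe set, Gga.1090.1.S1_s_at, read 6417 in H1L 1, 7400 and 7721 in H1R 1 and H1R 2, and 620.5 and 4260 in WT 1 and WT 2. All 3 deletion arrays lay above both WT arrays, and the WT arrays differed from each other by 6.86-fold.

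The dimmer RPL22L1 probe sets had the same order between H1R and WT. Gga.10117.2.S1_a_at read 53.2 in H1L 1, 103 and 90.4 in H1R, and 29.3 and 15.6 in WT, where 1 of the 2 WT arrays lay below the background limit. Gga.1090.2.S1_at read 46.4 in H1L 1, 124 and 99.5 in H1R, and 31.3 and 34.2 in WT. On all 3 probe sets the H1L array lay between the H1R and the WT arrays.

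**Figure D1:**
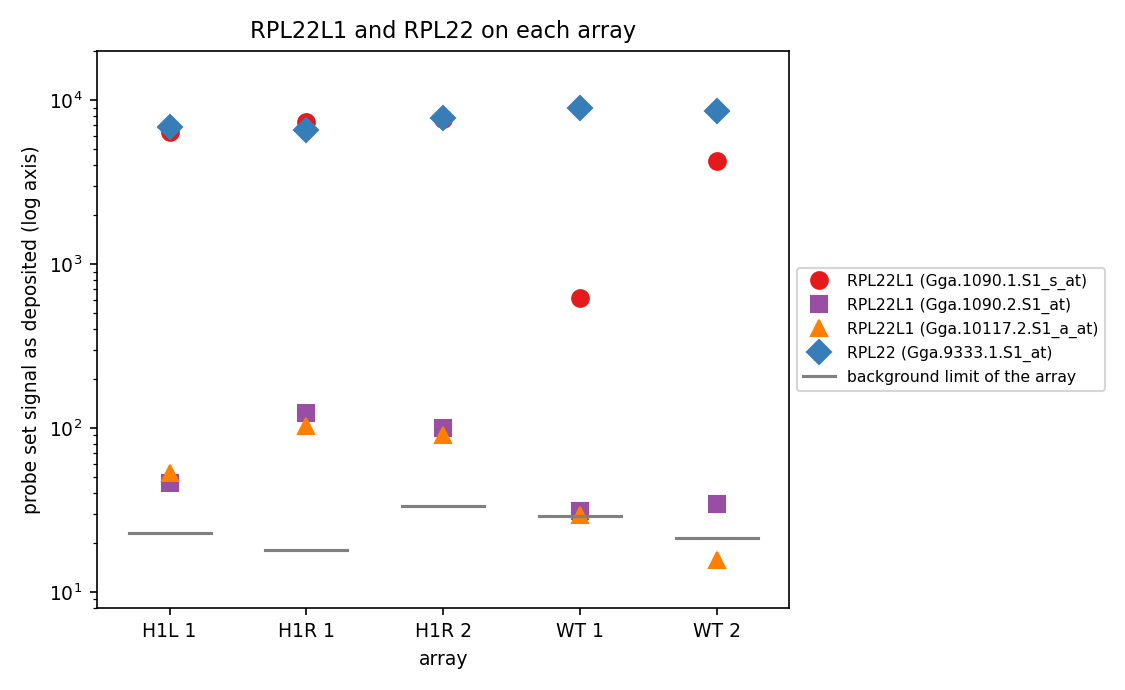
Signal of the 3 RPL22L1 probe sets and of RPL22 on each array, on a log axis, with the background limit of each array as a grey bar. On the brightest RPL22L1 probe set the deletion arrays read 6417 to 7721 and the WT arrays 620.5 and 4260, while RPL22 read 6543 to 7770 in the deletion arrays and 8556 to 8942 in WT.

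No RPL22L1 probe set passed the threshold of 0.05 in the fit without the day. In limma, with Benjamini-Hochberg adjustment over 23053 probe sets, the log2 fold change of H1R against WT was 2.21 ± 0.71 (SE) with an adjusted p of 0.303 for Gga.1090.1.S1_s_at. It was 1.89 ± 0.37 with an adjusted p of 0.0634 for Gga.10117.2.S1_a_at, and 1.60 ± 0.32 with an adjusted p of 0.0735 for Gga.1090.2.S1_at. With the day as a block, which pairs the arrays of one day, RPL22L1 rose in H1R on all 3 probe sets, with adjusted p-values of 0.0329, 0.0103 and 0.018 in the same order. That fit has 1 residual degree of freedom and called 3.7% of all probe sets. Averaging the 3 probe sets before the fit without the day gave a log2 fold change of 1.90 with an adjusted p of 0.0325.

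The day changed the size of the difference. On the first day the brightest RPL22L1 probe set was 11.9-fold higher in H1R 1 than in WT 1, and on the second day 1.81-fold higher in H1R 2 and 1.51-fold higher in H1L 1 than in WT 2. Gga.1090.2.S1_at was 3.96-fold higher in H1R 1 than in WT 1 and 2.91-fold higher in H1R 2 than in WT 2. Gga.10117.2.S1_a_at was 3.51-fold higher on the first day and at least 4.22-fold higher on the second, taking the background limit for WT 2. Every probe set was therefore higher in H1R on both days, and the large ratio on the first day belonged to the brightest probe set and to WT 1. Without WT 1 its log2 fold change was 0.83 with an adjusted p of 0.291, and without WT 2 it was 3.59 with an adjusted p of 0.00571.

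In H1L against WT the values of RPL22L1 were higher but not past the threshold. The log2 fold changes were 1.97 ± 0.87 for Gga.1090.1.S1_s_at (limma adjusted p = 0.735), 1.10 ± 0.45 for Gga.10117.2.S1_a_at (adjusted p = 0.707) and 0.44 ± 0.39 for Gga.1090.2.S1_at (adjusted p = 0.939). With only 1 H1L array, its tests borrow the spread of the WT and H1R arrays. Without WT 2 the brightest probe set passed, at a log2 fold change of 3.36 and an adjusted p of 0.0229. H1L against H1R gave -0.24 ± 0.87, -0.79 ± 0.45 and -1.16 ± 0.39 for the 3 probe sets in the same order, with limma adjusted p-values of 0.983, 0.892 and 0.866.

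RPL22 itself ran the other way by a small amount. Its only probe set, Gga.9333.1.S1_at, read 6864 in H1L 1, 6543 and 7770 in H1R and 8942 and 8556 in WT. All deletion arrays lay below both WT arrays. As deposited, the log2 fold change in H1R against WT was -0.29 ± 0.16 (limma adjusted p = 0.619, 95% interval -0.66 to 0.07). In H1L against WT it was -0.35 ± 0.20 (adjusted p = 0.833, interval -0.80 to 0.10), and neither passed. After quantile normalization the values were -0.29 in H1R and -0.18 in H1L against WT, so the H1L value changed with the scaling.

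Within an array, the log2 ratio of the brightest RPL22L1 probe set to RPL22 does not depend on how the arrays are scaled by a factor. It was -0.10 in H1L 1, 0.18 and -0.01 in H1R 1 and H1R 2, and -3.85 and -1.01 in WT 1 and WT 2. The mean difference was 2.51 between H1R and WT and 2.33 between H1L and WT, and the WT arrays differed by 2.84. The spread between the WT arrays was thus as wide as the difference between the groups. From WT 2, the WT array of its own day, H1L 1 differed by 0.91. With Gga.1090.2.S1_at the ratio differed by 2.06 between H1R and WT and by 0.85 between H1L and WT, against 0.19 between the WT arrays. With Gga.10117.2.S1_a_at it differed by at least 2.24 between H1R and WT and at least 1.44 between H1L and WT, taking the background limit for WT 2.

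Apart from RPL22L1, no ribosomal protein probe set passed the threshold in H1R against WT, with or without the day as block. With 2 arrays in each group and an unknown deposited scale, this does not show that the other messages were unchanged. Of 139 member probe sets 133 were bright enough to be tested, and all 66 genes had at least 1. In limma without the day, 0 of 133 passed the threshold in either direction, against 1.17% of all tested probe sets. At an unadjusted p under 0.05 there were 5 higher (3.76% of the members) and 0 lower, against 6.14% and 4.09% of all. Of the 5, 3 were the RPL22L1 probe sets. With the day as block, 3 members passed, all of them RPL22L1 (2.26% of the members, against 3.7% of all).

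Taking the brightest probe set of each gene, 30 genes were higher and 36 lower in H1R. Their median was -0.01 on the log2 scale, with a 25th to 75th percentile from -0.05 to 0.02. Of all tested probe sets 58.5% were higher, at a median of 0.09. Of the 1985 over 1000, 1371 were higher and 614 lower, at a median of 0.13. After quantile normalization the median was 0.02 for the 80 bright members and 0.03 for all tested probe sets over 1000. Among the 66 genes as deposited the values ran from -0.33, for RPL3L, to 2.21, for RPL22L1. Their SD was 0.30, against 0.68 over all tested probe sets. Bright members had a median standard error of 0.14, against 0.24 over all tested probe sets over 1000 and 0.38 over all tested probe sets. Both H1R arrays exceeded both WT arrays for 32 members, 24.1%, where 24.9% of all tested probe sets did so, and both lay below for 9, 6.77%, against 14.5% of all. Both lay below for 8.27% of the members against 18.9% of all after quantile normalization and for 2.26% against 14.8% after scaling to hybridization controls, but for 43 members, 32.3%, against 19.9% after cyclic loess.

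**Figure D2:**
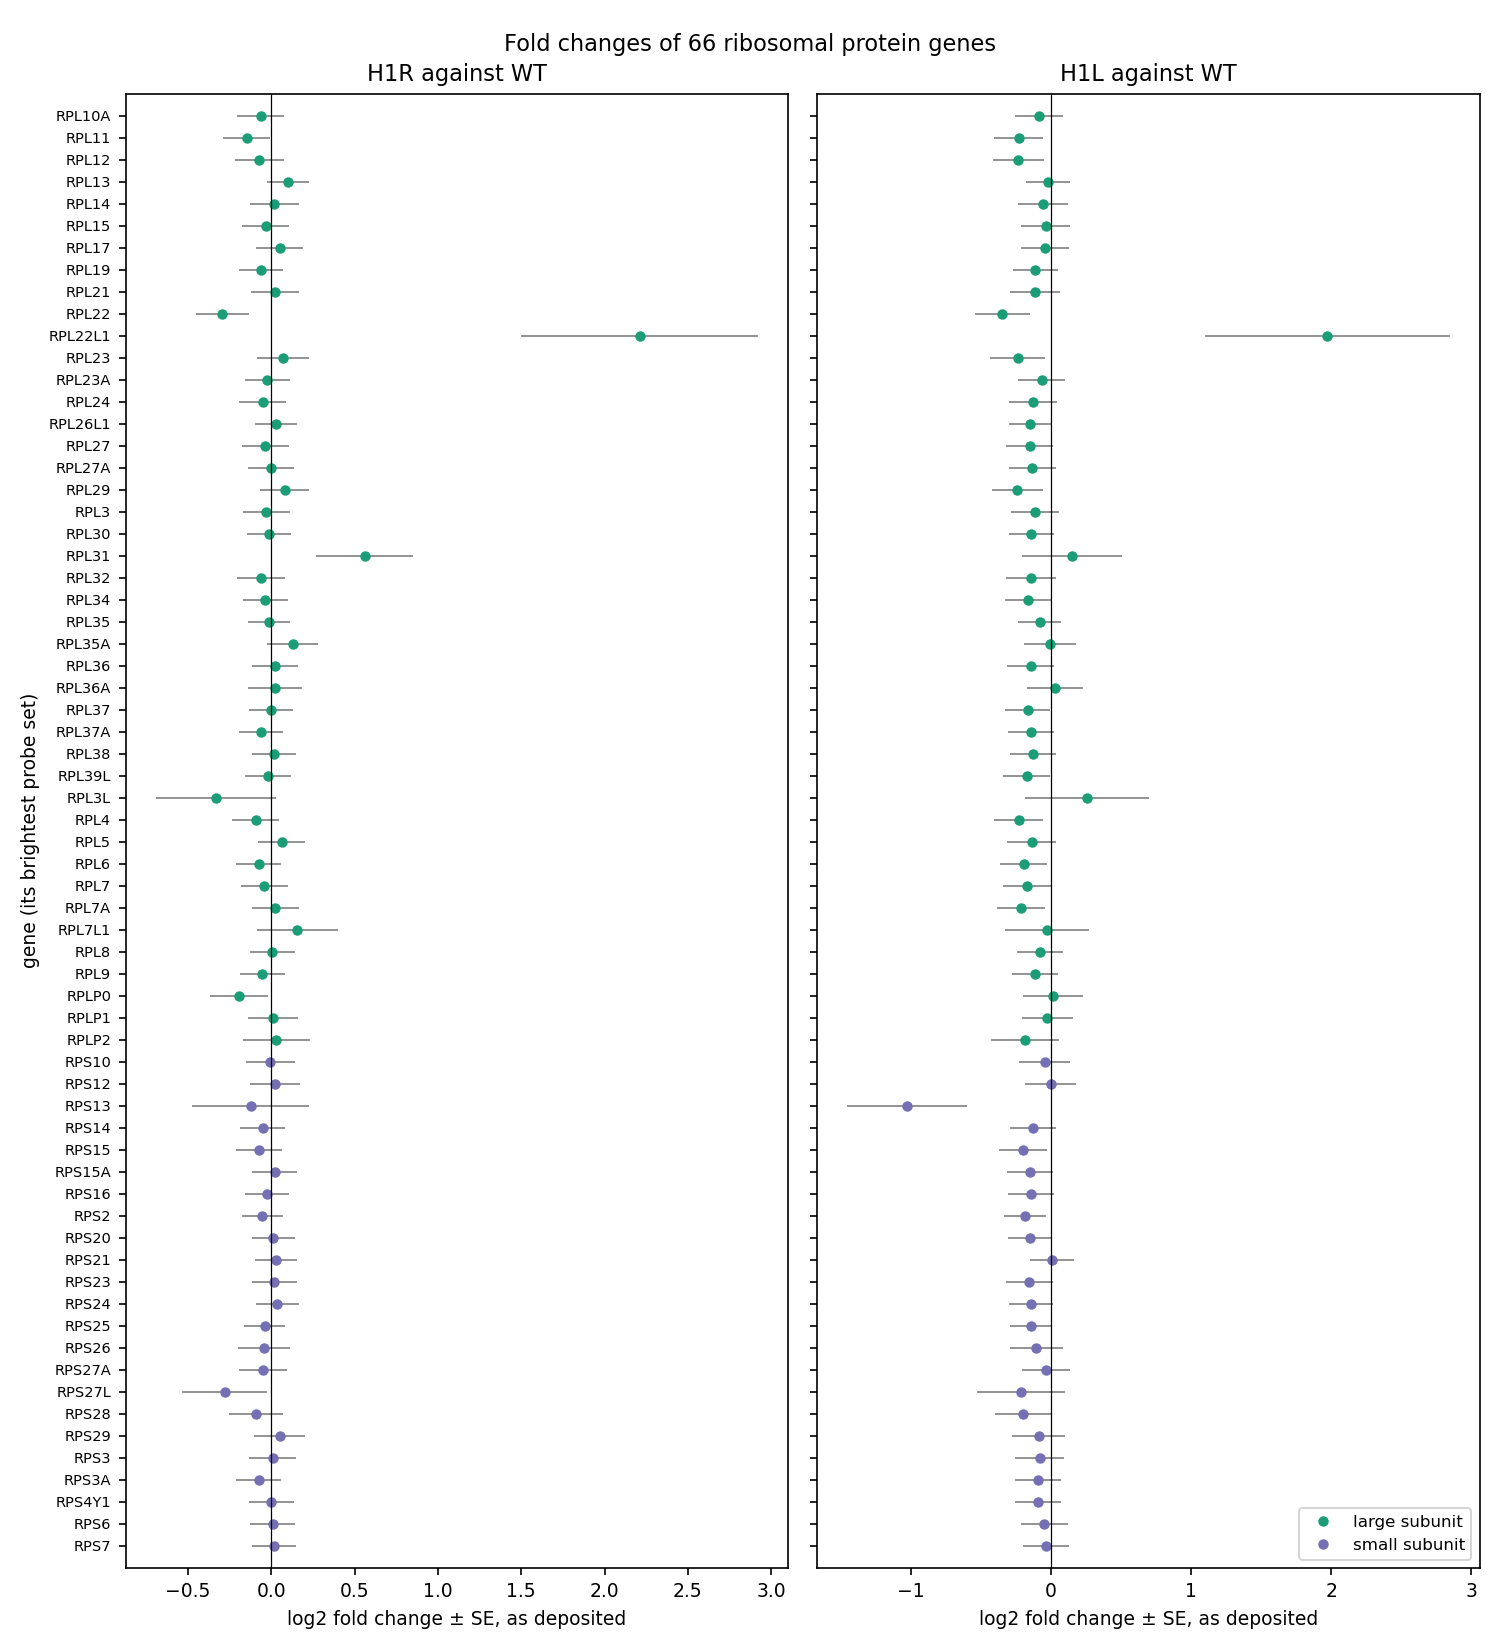
Log2 fold change with its standard error for the brightest probe set of each of the 66 genes, in H1R against WT on the left and H1L against WT on the right, large subunit genes in green and small subunit genes in purple. Most genes sit near 0 in H1R, with RPL22L1 at 2.21, and slightly below 0 in H1L, with RPL22L1 at 1.97 and the dim RPS13 at -1.03.

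The ribosomal stalk, which recruits translation factors that use GTP, is made of RPLP0 and its partners RPLP1 and RPLP2. RPLP0 read 9957 in H1L 1, 7465 and 10000.3 in H1R, and 9770 and 9989 in WT, so that H1R 1 alone was low. Its log2 fold change was -0.19 ± 0.17 in H1R (limma adjusted p = 0.811) and 0.01 ± 0.21 in H1L (adjusted p = 0.999). RPLP1 read 10587 in H1L 1, 9975 and 11834 in H1R, and 10452 and 11150 in WT, and the groups overlapped. RPLP2 read 3841 in H1L 1, 3935 and 5054 in H1R, and 4088 and 4671 in WT, where the H1R arrays again spanned both WT arrays.

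RPL5 and RPL11 form, with 5S ribosomal RNA, the particle that in mammals binds MDM2 when ribosome assembly fails. RPL5 read 8179 in H1L 1, 9159 and 9643 in H1R, and 8958 and 9045 in WT. Its log2 fold change in H1R was 0.06, with a 95% interval from -0.26 to 0.39. RPL11 read 11024 in H1L 1, 11254 and 12139 in H1R, and 13888 and 12068 in WT, where WT 1 was the highest array. Its log2 fold change in H1R was -0.15 (interval -0.47 to 0.18).

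RPL3, which reaches into the peptidyl transferase centre, read 8729 in H1L 1, 9159 and 9309 in H1R, and 9593 and 9277 in WT. Its striated muscle paralogue RPL3L stayed near the background limit in this B cell line, at 55.8 in H1L 1, 27.8 and 43.8 in H1R, and 41 and 50.8 in WT. Neither gene separated the genotypes beyond its standard error by much: RPL3L had -0.33 ± 0.36 in H1R and 0.26 ± 0.44 in H1L.

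RPS6 is the substrate of S6 kinase. It read 10258 in H1L 1, 10307 and 11015 in H1R, and 10425 and 10785 in WT, and its log2 fold change was 0.01 in H1R (95% interval -0.31 to 0.32) and -0.05 in H1L (interval -0.43 to 0.34). RPS3, which lines the entry channel of the message, read 8385 in H1L 1, 8770 and 9091 in H1R, and 9061 and 8703 in WT. RPS27A, made as a fusion with ubiquitin, read 11375 in H1L 1, 10528 and 12018 in H1R, and 11314 and 11991 in WT. In all of them the H1R arrays overlapped the WT arrays.

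RPS14 and RPS20 lie in the platform and head of the small subunit, and RPS25 is known for its part in initiation on viral internal entry sites. RPS14 read 10510.0 in H1L 1, 11150 and 11005 in H1R, and 11686 and 11294 in WT on its brightest probe set, and RPS25 read 13730 in H1L 1, 14651 and 14778 in H1R, and 15191 and 15089 in WT. Both were lowest in H1L 1 and highest in WT, by log2 fold changes of -0.05 for RPS14 and -0.04 for RPS25 in H1R and of -0.13 and -0.14 in H1L. RPS20 read 12583 in H1L 1, 13469 and 14712 in H1R, and 13852 and 14073 in WT.

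Large subunit members with known extra roles moved as little. RPL38, needed in mouse for translation of some Hox messages, read 11292 in H1L 1, 12255 and 12701 in H1R, and 11789 and 12930 in WT. RPL10A, of the stalk where spent transfer RNA leaves, read 10292 in H1L 1, 10041 and 10909 in H1R, and 10477 and 11413 in WT. RPL23, which like RPL11 binds MDM2 in mammals, read 5418 in H1L 1, 6655 and 6787 in H1R, and 6651 and 6153 in WT, and it was lowest in H1L 1. Its log2 fold change of -0.24 ± 0.19 in H1L did not pass (limma adjusted p = 0.926). RPL7, RPL7A and RPL30, the last of which binds its own message in yeast, had log2 fold changes of -0.04, 0.02 and -0.01 in H1R and of -0.17, -0.22 and -0.14 in H1L.

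Other members carry the names of paralogues. RPS27L, a target of p53 in human cells, read 1120 in H1L 1, 929 and 1233 in H1R, and 1329 and 1272 in WT, below WT on each deletion array, by -0.28 ± 0.26 in H1R (limma adjusted p = 0.816) and -0.21 ± 0.31 in H1L (adjusted p = 0.971). RPL7L1 read 3186 in H1L 1, 3218 and 4093 in H1R, and 2693 and 3938 in WT, higher on the second day than on the first within WT and within H1R. RPL39L, RPL26L1 and RPS4Y1 are the symbols that the probe table and RefSeq give to the chicken genes measured here, and their log2 fold changes in H1R were -0.02, 0.03 and 0.00, with -0.17, -0.15 and -0.09 in H1L. Of 34 genes set aside by role, 25 had a member probe set.

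In H1L against WT, the bright members were lower almost as a body on the deposited scale. Among the brightest probe sets of each gene 6 were higher and 60 lower, with a median log2 fold change of -0.13, and among all 80 bright ones 4 were higher and 76 lower. Bright probe sets of every kind were lower too: the 1985 tested probe sets over 1000 had a median of -0.11, with 725 higher and 1260 lower. In limma 0 of 133 passed, against 0.2% of all tested probe sets. At an unadjusted p under 0.05 there were 1 higher and 4 lower, 0.752% and 3.01% of the members, against 2.18% and 4.72% of all. With the day as block 0 passed, against 0.508%. The H1L array lay below both WT arrays for 94 of 133 members, 70.7%, where 39.1% of all tested probe sets did so.

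That difference followed the scaling. After quantile normalization 41 bright members were higher and 39 lower, with a median of 0.00, and the H1L array lay below both WT arrays for 37.6% of the members, against 35.7% of all. After scaling to 27 hybridization control probe sets of bacterial and phage origin it lay below for 21.1%, against 32.1% of all, and after cyclic loess for 24.1%, against 35.6%. H1L 1 had the lowest median signal of the 5 arrays, 19.3, which lay below its background limit of 23. The median of all tested probe sets was itself at -0.05. Other measures of scale were not lowest in H1L 1. The mean signal without the highest and lowest 2% was 119.4 in WT 1 and 124.8 in H1L 1. The hybridization controls had a geometric mean of 1063 in WT 1, 1103 in H1R 1 and 1119 in H1L 1. A uniformly lower content of ribosomal protein messages and a lower scale of that one array cannot be told apart, since the deposited scale is unknown and H1L has 1 array.

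**Figure D3:**
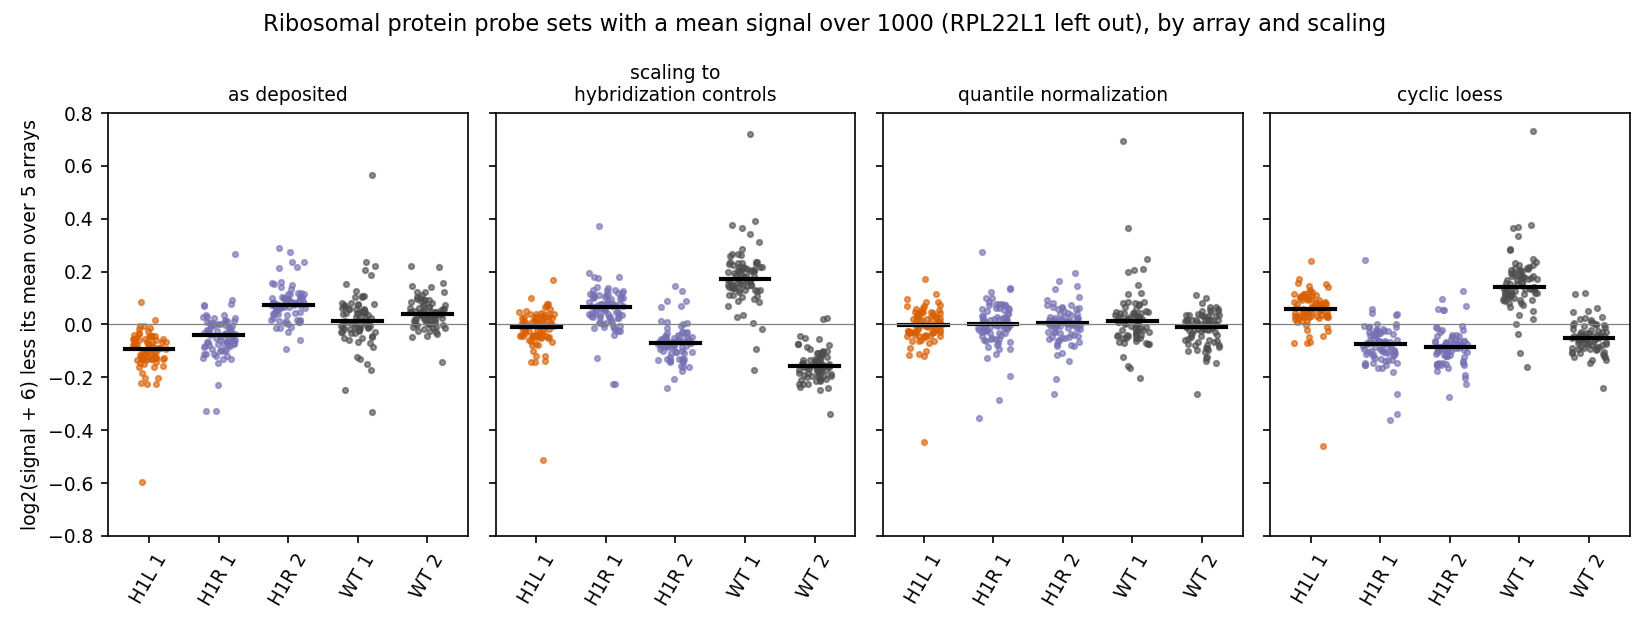
Log2(signal + 6) of the bright ribosomal protein probe sets other than RPL22L1, less each probe set's mean over the 5 arrays, by array and under 4 scalings, with the median as a black bar. As deposited H1L 1 is lowest and H1R 2 highest, after scaling to hybridization controls WT 1 is highest and WT 2 lowest, and after quantile normalization the medians lie between -0.01 and 0.01.

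Arrays of one genotype also differed. As deposited, the median deviation of the 80 bright members from their own mean was -0.09 log2 units in H1L 1, -0.04 and 0.08 in H1R 1 and H1R 2, and 0.01 and 0.04 in WT 1 and WT 2. After scaling to the hybridization controls it was -0.01 in H1L 1, 0.07 and -0.07 in H1R, and 0.17 and -0.16 in WT, and after cyclic loess 0.06 in H1L 1, -0.07 and -0.09 in H1R, and 0.14 and -0.05 in WT. The members shifted together from array to array, and which array was highest changed with the scaling. H1L 1 was the lowest array for 53 of the 80 bright members as deposited, for 17 after quantile normalization and for 3 after scaling to the controls, where it was lowest for 26.5%, 20.4% and 19.7% of all tested probe sets in that order.

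Both subunits moved alike. Bright large subunit members had a median log2 fold change of 0.00 in H1R and -0.13 in H1L, and bright small subunit members -0.01 and -0.13. On single arrays the median deviations of the subunits differed by at most 0.03 log2 units as deposited, in H1R 1.

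In H1L against H1R, 0 of 133 members passed in limma, against 0.00434% of all tested probe sets. At an unadjusted p under 0.05 there were 0 higher and 9 lower (6.77% of the members), against 1.23% and 4.31% of all. With the day as block 0 passed, against 0.134%. Of the bright members 4 were higher and 76 lower as deposited, with a median of -0.11 beside -0.15 for all tested probe sets. All tested probe sets over 1000 had a median of -0.24, with 389 higher and 1596 lower. After quantile normalization 41 bright members were higher and 39 lower, beside 900 and 1085 of all tested probe sets over 1000. The H1L array lay below both H1R arrays for 100 members, 75.2%, against 46% of all, and for 47.4% against 35.6% after quantile normalization. It lay below for 36.1% against 39.1% after scaling to the hybridization controls and for 27.1% against 34.6% after cyclic loess, where it lay above both H1R arrays for 56.4% of the members, against 33.4% of all.

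**Figure D4:**
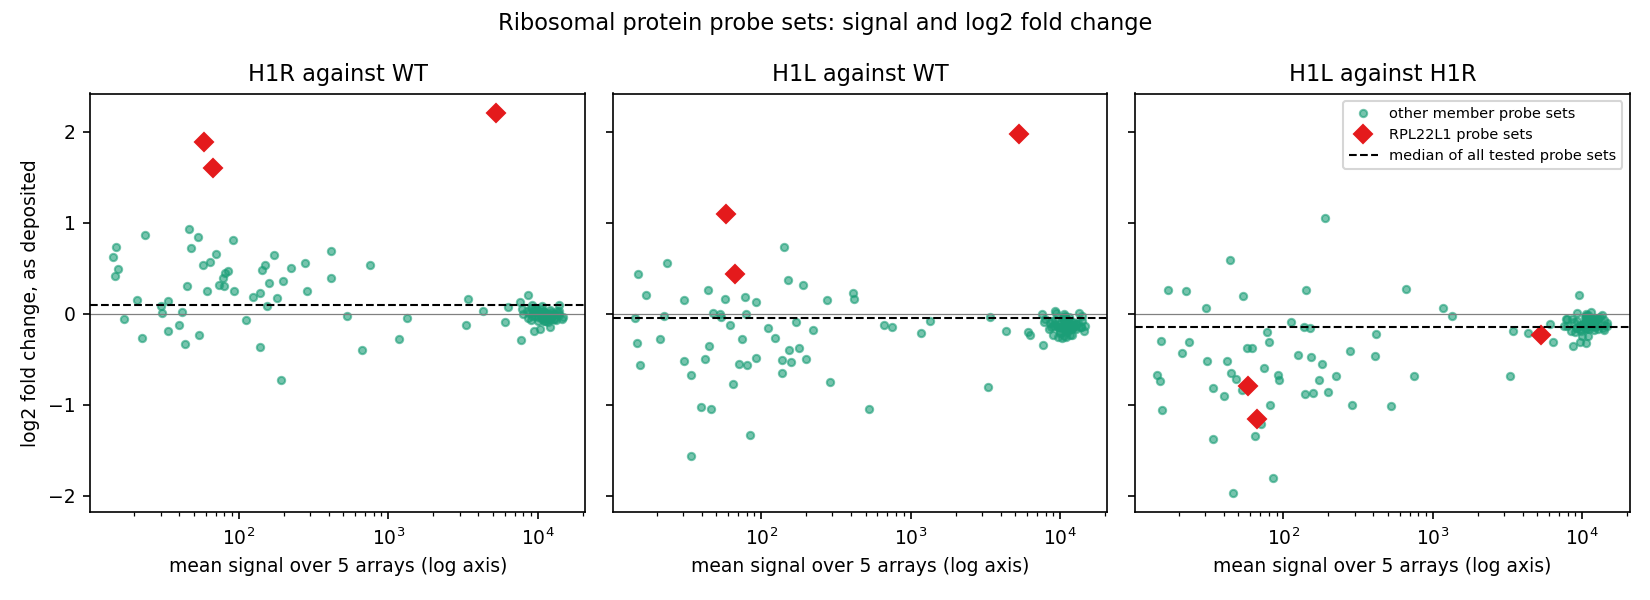
Log2 fold change of each tested member probe set against its mean signal (log axis) in 3 comparisons, with RPL22L1 as red diamonds and the median of all tested probe sets as a dashed line. Bright members crowd near the dashed line while dim ones spread from -1.98 to 1.89.

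The dim probe sets of the same genes had other medians than the bright ones. Of the 59 with a mean signal at or under 1000, 53 passed the filter. In H1R against WT 42 of them were higher and 11 lower, with a median log2 fold change of 0.34, beside 0.08 over all tested probe sets at or under 1000. In H1L against H1R 8 were higher and 45 lower, with a median of -0.60 beside -0.13. After quantile normalization those medians were 0.26 beside 0.01, and -0.46 beside 0.00. None of them passed the threshold in limma without the day in those comparisons.

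As deposited both H1R arrays were high for the dim members, and H1R 2 was high for all tested probe sets as well. H1R 1 and H1R 2 each lay above the probe set's own mean for 42 of the 53, WT 1 for 22, WT 2 for 21 and H1L 1 for 12. The median deviations were 0.29, 0.22, -0.07, -0.09 and -0.29 log2 units in the same order. Over all tested probe sets they were -0.003, 0.18, -0.10, 0.09 and -0.07. H1R 1 was the highest array for 30 of the 53, where it was highest for 19.4% of all tested probe sets. H1R 2 was highest for 14 of the 53, and for 32.8% of all. H1L 1 was lowest for 25 of the 53, and for 26.5% of all. After quantile normalization H1R 1 was highest for 34 of the 53, where it was highest for 24.1% of all tested probe sets. Its median deviation was then 0.34, beside 0.08 in H1R 2 and 0.03 and -0.16 in WT 1 and WT 2. H1R 1 also had the highest actin 3′ to 5′ ratio, 3.87, and the part of RNA quality in this was not tested. On the second day against the first, the dim members had a median of -0.01 as deposited and -0.24 after quantile normalization, where 13 were higher and 40 lower. Among the 59 dim probe sets 9 carry the design's label for an antisense transcript, against 1 of the 80 bright ones. Those 9 include an antisense-labelled probe set of each of RPL15, RPLP1, RPS12 and RPS13 that did not pass the filter. These are not among the 53.

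**Figure D5:**
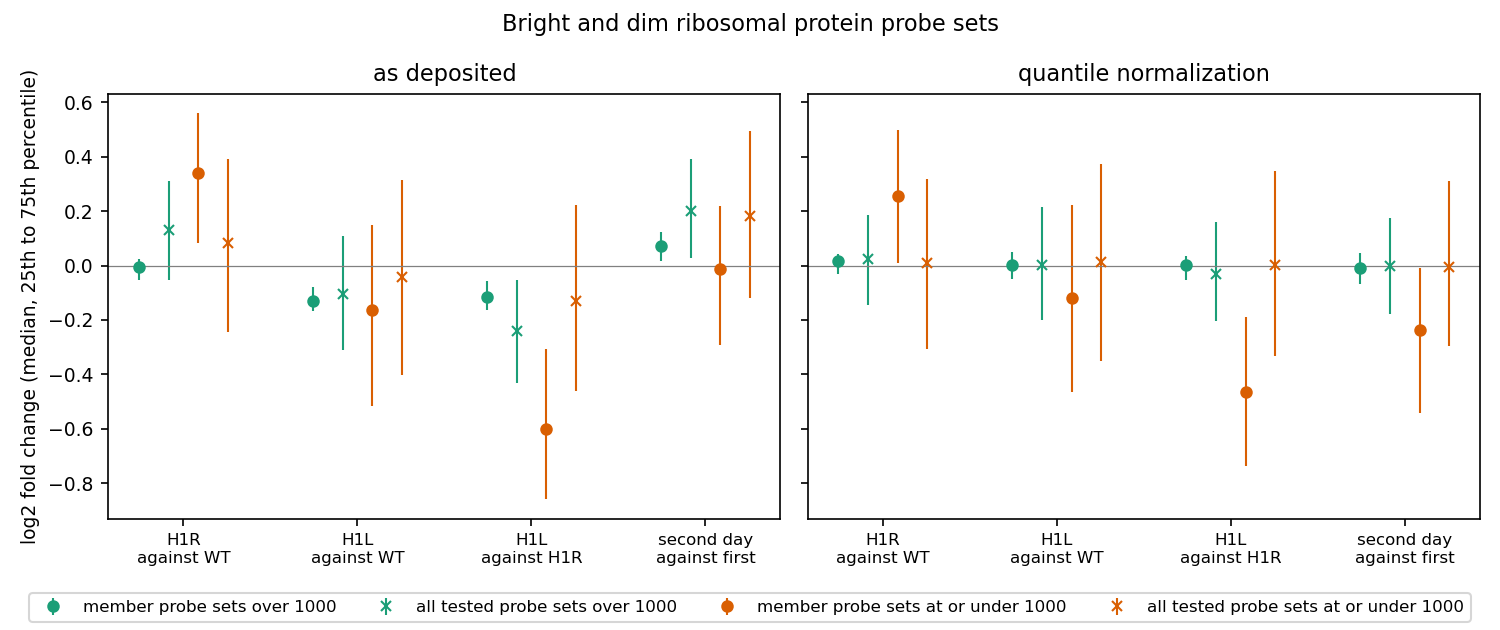
Median log2 fold change with the 25th to 75th percentile for member probe sets (circles) and all tested probe sets (crosses) over 1000 in green and at or under 1000 in orange. Dim members lie above the other dim probe sets in H1R against WT (0.34 and 0.08 as deposited) and below them in H1L against H1R (-0.60 and -0.13).

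Probe sets of one gene could disagree, as those of RPL22L1 did in H1L against WT. RPL24, a late-joining large subunit protein that bridges to the small subunit, has 7 probe sets. The antisense-labelled Gga.4583.4.A1_at read 28.5 in H1L 1, 128.5 and 102.0 in H1R, and 93.7 and 70.0 in WT, with H1L 1 far below the rest. Gga.4583.2.S1_x_at read 250.7 in H1L 1, 56.7 and 240.1 in H1R, and 173.1 and 230.5 in WT, with H1R 1 alone low. The log2 fold changes of H1L against H1R were -1.80 and 1.05, while RPL24's bright Gga.4583.1.S1_x_at read 11099 in H1L 1, 10931 and 12491 in H1R, and 11742 and 12505 in WT.

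RPL31, a protein near the exit of the peptide tunnel, gave the highest values in H1R after RPL22L1. Gga.10283.1.S1_at read 13.4 in H1L 1, 94.3 and 52.0 in H1R, and 47.5 and 23.9 in WT. Its log2 fold change was 0.93 ± 0.44 in H1R against WT (limma adjusted p = 0.541) and -1.98 ± 0.54 in H1L against H1R (adjusted p = 0.85). The H1L 1 value lay below the background limit of that array, 23, so the size of the second fold change is uncertain. RPL31 has 1 further probe set. Its other probe set, Gga.4657.1.S1_at, read 252.5 in H1L 1, 328.8 and 348.3 in H1R, and 225.1 and 229.7 in WT. There both H1R arrays lay above the rest, by 0.56 ± 0.29 against WT (adjusted p = 0.598).

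RPS13 has no bright probe set on this array, and its values lay close to the background limit. The antisense-labelled Gga.8499.4.A1_at read 10.1 in H1L 1, 25.4 and 49.4 in H1R, and 35.5 and 48.7 in WT. It had the lowest log2 fold change of H1L against WT among the members, -1.57 ± 0.52 (limma adjusted p = 0.565). The H1L 1 value lay below the background limit of that array, 23, so the size of this fold change is uncertain. RPS13's Gga.8499.2.S1_at read 32.2 in H1L 1, 25.8 and 36.0 in H1R, and 25.3 and 32 in WT, where H1L 1 lay just above both WT arrays and within the range of H1R. The dim RPL27A probe set Gga.7953.1.S1_at read 31.0 in H1L 1, 91.1 and 85.6 in H1R, and 55.0 and 59.9 in WT, while RPL27A's bright Gga.9087.2.S1_a_at read 11466 in H1L 1, 11773 and 13391 in H1R, and 12422 and 12759 in WT.

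The remaining extremes were dim as well. RPL29's Gga.1799.1.S2_at read 269.5 in H1L 1, 465.2 and 653.8 in H1R, and 899.8 and 352.2 in WT, so that the WT arrays spanned the H1R arrays. RPL38's dim Gga.6446.1.S1_x_at read 181.0 in H1L 1, 155.0 and 145.8 in H1R, and 72.6 and 155.0 in WT, where WT 1 alone was low. RPS14's Gga.4512.2.S1_at had -0.40 ± 0.32 in H1R against WT (limma adjusted p = 0.786) and 0.27 ± 0.40 in H1L against H1R (adjusted p = 0.95), and RPS14's GgaAffx.13119.1.S1_s_at -0.88 in H1L against H1R. Low values also came from RPLP1's GgaAffx.20789.1.S1_at, at -0.37 in H1R against WT, and high ones from RPL15's Gga.18705.1.S1_at, at 0.55 in H1L against WT. For RPS25 the bright Gga.9181.1.S1_x_at and the antisense-labelled Gga.9181.5.A1_at had -0.03 and -1.06 in H1L against H1R. For RPLP1 the dim, antisense-labelled Gga.3917.3.A1_at had 0.26 in that comparison. Gga.18705.1.S1_at exceeded the background limit on 2 of the 5 arrays, and Gga.9181.5.A1_at and Gga.3917.3.A1_at on 1 each. The fold changes of these probe sets thus rest largely on values at or below the limit.

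Of the bright members, 1 other stood out, named after its values were seen. RPL9's Gga.13605.1.A1_at, labelled antisense in the design, read 2099 in H1L 1, 3824 and 2977 in H1R, and 4698 and 2878 in WT. It was lowest in H1L 1 and highest in WT 1. Its log2 fold change in H1L against WT was -0.81 ± 0.33 and did not pass (limma adjusted p = 0.711).

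The day, which no genotype explains, was compared as well. On the second day against the first, 64 bright members were higher and 16 lower, with a median log2 fold change of 0.07 beside 0.18 for all tested probe sets. In limma 0 of 133 passed, against 0.62% of all. At an unadjusted p under 0.05, 7 were higher and 4 lower, 5.26% and 3.01% of the members, against 14.1% and 2.05% of all. RPS12, a protein in the beak of the small subunit, had the lowest value, on its dim probe set Gga.4524.1.S1_at, which read 157.8 in H1L 1, 388.8 and 170.0 in H1R, and 292.1 and 109.8 in WT. The second-day array was the lower one within both H1R and WT, by -1.26 ± 0.24 in the fit (adjusted p = 0.0569).

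Genes that work with ribosomal proteins were read beside them. Among 66 mitochondrial ribosomal protein genes (87 probe sets) 0 passed in limma in each of the 3 genotype comparisons, with 6 higher and 0 lower at an unadjusted p under 0.05 in H1R against WT, 2 and 2 in H1L against WT and 0 and 3 in H1L against H1R. Among 41 translation factor genes (68 probe sets) 0 passed as well, with 2 higher and 3 lower, 1 and 4, and 0 and 2 at an unadjusted p in the same order. Ribosome biogenesis genes, which process ribosomal RNA in the nucleolus, gave 0 of 155 probe sets of 75 genes, with 9 and 0, 4 and 1, and 1 and 1. Of all tested probe sets, 6.14% were higher and 4.09% lower at an unadjusted p under 0.05 in H1R against WT. The shares were 2.18% and 4.72% in H1L against WT, and 1.23% and 4.31% in H1L against H1R. The biogenesis list had a median log2 fold change of 0.25 in H1R against WT, beside 0.09 for all tested probe sets, and of 0.09 in H1L against WT, beside -0.05.

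Some of these genes passed between the days as deposited, where 0.62% of all tested probe sets did. On the second day against the first the biogenesis genes DDX21 (on 2 probe sets), DDX52 and TCOF1 rose, as did the translation factors EEF1G (on 2 probe sets) and EIF4G1, the mitochondrial gene MRPL41 and the growth control gene LARP1. After quantile normalization 1 translation factor probe set passed in limma and 0 of the biogenesis, mitochondrial and growth control lists did. Median log2 fold changes were then 0.02 for translation factors, 0.18 for biogenesis, 0.07 for mitochondrial and 0.16 for growth control genes. The median of all tested probe sets was -0.0034. RACK1, a protein of the small subunit whose symbol is not of the RPS form, read 7402 in H1L 1, 6421 and 7681 in H1R, and 6150.0 and 7554 in WT.

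Among 27 growth control genes (60 probe sets), MYCN alone passed in H1R against WT, where 1.17% of all tested probe sets did. None passed in the other genotype comparisons. At an unadjusted p under 0.05 there were 5 higher and 2 lower in H1R against WT, against 6.14% and 4.09% of all. In H1L against WT there were 1 higher and 4 lower, against 2.18% and 4.72%. In H1L against H1R there were 1 higher and 8 lower, against 1.23% and 4.31%. MYCN codes for a MYC family factor, a class known to drive ribosomal protein and ribosomal RNA genes. Its Gga.15288.1.S1_at read 17.9 in H1L 1, 159.4 and 218.9 in H1R, and 1.0 and 1.3 in WT, with both WT arrays below the background limit. A second MYCN probe set, which did not pass, read 19.8 in H1L 1, 54.7 and 68 in H1R, and 6.7 and 25.7 in WT. On the first probe set MYCN was at least 7.47-fold higher in H1R than in WT, taking that limit for WT (limma adjusted p = 0.00124). The bright ribosomal protein members had a median log2 fold change of 0.00 in the same comparison, beside 0.13 for all tested probe sets over 1000. The relation of the MYCN and ribosomal protein values was not tested.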

How the data were processed

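Total RNA of DT40 cells was measured on 5 Affymetrix Chicken Genome arrays. The authors used GCOS, per the submitters' processing notes, and deposited for each probe set a signal intensity that is not on a log scale. No version of GCOS, scaling target or detection call is given in the sources used here, so the scale between arrays is unknown, and the number of arrays limits the precision. Groups came from the titles and the day from the descriptions.

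The 96 control probe sets were left out of the tests. Of the others, 27168 had 1 gene symbol in the probe table, 177 several and 11094 none. All 66 member genes were found in RefSeq (GRCg7b). Signals entered the tests on the scale log2(signal + 6), with 6 the 25th percentile, which understates the changes of dim probe sets. A mean signal above 13.4, the 40th percentile, was required, which left 23053 probe sets. limma 3.58.1 (R 4.3.3; lmFit, eBayes with trend) fitted a term for each group over all 5 arrays, with Benjamini-Hochberg adjustment over every tested probe set and a threshold of 0.05. Degrees of freedom were 2 (residual) and 6.04 (prior), and 1 and 8.32 with the day as block. By the labels the day pairs H1R and WT arrays that share a number, and the correlation of their deviations from the group means over probe sets was 0.192. The fit without the day was tested on simulated data, in 5 runs with 200 changed probe sets among 23053. In H1R against WT it recovered 0.597% of log2 changes of 1, 22.1% of those of 2 and 68.8% of those of 4. In H1L against WT it recovered 0%, 6.87% and 57.0%. False calls made up 5.21% and 7.06% of the calls. The changed probe sets were drawn from all tested probe sets, and no difference between days was simulated. Bright members had a median standard error of 0.14 in H1R against WT, against 0.38 over all tested probe sets. The recovered shares therefore do not hold for bright members, which were not simulated on their own. For dim members, with a median standard error of 0.35, a count of 0 does not show that changes of the smaller sizes were absent.

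Members, gene lists and role genes were chosen with earlier results of these data known. Named are member probe sets past the threshold, the 4 highest and 4 lowest log2 fold changes of each genotype comparison, genes of known role, and genes whose probe sets differ by over 1 log2 unit. The background limit, the split at a signal of 1000, the scaling to hybridization controls and the use of only the brightest probe set of a gene were chosen after the data were seen. Likeness of patterns between genes was left out, since 5 arrays are too few for a correlation. Scaling, pseudocount, filter, moderation, averaging of probe sets, the day and each array were varied.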

Additional observations from a re-analysis of the deposited data

How the results depend on the processing

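The counts of members past the threshold were 0 in each comparison and changed as follows. In H1R against WT, 3 members passed with the day as replicate block, 2.26% of the members against 3.7% of all. With the probe sets of a gene averaged 1 passed, in each case RPL22L1. Without WT 2 the log2 fold change of its brightest probe set was 3.59. In H1L against WT, 0 to 1 passed with an array left out, again RPL22L1, without WT 2. On the second day against the first, 1 passed under median scaling, 2% trimmed mean scaling, a pseudocount of 32, a filter at the 60th percentile and scaling to hybridization controls, in each case RPS12's Gga.4524.1.S1_at. In H1L against H1R no alternative gave another count. Apart from the block by day, the shares of all probe sets called under these settings are not given here. The counts may therefore reflect settings that call more probe sets of every kind.

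Within each array, the median log2 value of the members less that of all tested probe sets had an SD of 0.0715 between replicates. The median log2 fold change of the members less that of all tested probe sets is a value with no test. It was -0.0736 in H1R against WT, but 0.0239 after quantile normalization, and -0.143 (without WT 2) to 0.0173 (without WT 1) with an array left out. It was -0.0859 in H1L against WT, but -0.0083 after cyclic loess, -0.0105 with the day as replicate block, and -0.154 (without WT 2) to 0.0201 (without WT 1) with an array left out. It was 0.0022 in H1L against H1R, but 0.0882 after cyclic loess, and -0.126 on the second day against the first, but -0.0241 after quantile normalization. The cause of these shifts was not tested. No array can be left out of the comparison of days, which has 1 residual degree of freedom.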
